A study of Mus musculus with 9 samples.

Results

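Pericentral hepatocyte zonation genes are transcribed most in the hepatocytes around the central vein of the liver lobule. The 9 genes described here were taken by symbol from a table of 18148 genes, and all 9 were found: Glul, Oat, Slc1a2, Rhbg, Axin2, Tbx3, Lgr5, Cyp2e1 and Cyp1a2. They were measured by messenger RNA sequencing in 9 whole-liver libraries of C57BL/6J mice, 3 libraries from each of 3 groups. Treatment mice received 1500 mg/kg per day of di(2-ethylhexyl) phthalate, a plasticizer, in corn oil, together with 70 mg/kg of green tea polyphenols. DEHP mice received the same phthalate dose in corn oil, and Control mice received distilled water. All were dosed by gavage for 8 weeks. The study also had mice given corn oil alone or polyphenols alone, which were not analysed here. Effects of the phthalate and of its oil vehicle therefore cannot be told apart. No age or sex is given for the mice, and separate animals are not stated for the replicates, so the p-values below rest on a spread between libraries that may be technical.

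Blood enters the lobule at the portal veins and leaves at the central vein, and hepatocytes along this path express different genes. The innermost layer around the central vein makes glutamine from the ammonium that escaped the urea cycle upstream. Wnt ligands and R-spondin from the endothelium of the central vein activate beta-catenin in the nearest hepatocytes, which maintains glutamine synthesis and much of the local cytochrome P450 expression. A whole-liver library averages over all zones, so a lower value cannot show whether fewer cells expressed a gene or each cell held less of its RNA.

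The deposited values had no stated unit. In 2762 genes with values below 1, the smallest value above 0 fell with transcript length (Spearman correlation -0.675 across genes, which are not independent replicates), which is how values per transcript length behave. They are therefore treated as being of the FPKM or TPM kind. Library totals ran from 789076 to 863300 and read depth is unknown. Cyp4a14, a fatty acid hydroxylase induced by peroxisome proliferators, was at 1726.85, 3743.21 and 2087.56 in Treatment libraries, at 5717.43, 3592.93 and 3678.98 in DEHP libraries and at 108.93, 145.72 and 95.52 in Control libraries. Hepatocyte markers were high in every library, with 8 of 8 detected, among them Alb, and a summed level of 69580 to 80580 in Treatment, 71350 to 73940 in DEHP and 85350 to 90650 in Control libraries. The 12 endothelial markers summed to 80.8 to 104 in Treatment, 102 to 139 in DEHP and 88.6 to 116 in Control libraries. Adipoq, the fat cell hormone adiponectin, was listed at 0 in 7 libraries and was at 33.69 and 61.04 in Control replicates 1 and 2. The 8 Kupffer cell and macrophage markers summed to 96.1 to 165 in Treatment, 110 to 164 in DEHP and 86.2 to 93.5 in Control libraries. The 10 adipocyte markers summed to 27.1 to 59.2 in Treatment, 49.7 to 369.9 in DEHP and 14.25 to 1578 in Control libraries. Of the highest DEHP sum, that of replicate 1, Fabp4 made up 361.68. Adipoq, Plin1, Ucp1 and Lep were at 0 in every DEHP library. The part of these cell types in the results was not tested.

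Of the 9 genes, 6 had a promoter in the RefSeq table for GRCm38.p6, and the 250 bases before the start were searched on both strands for TCAAAG, the core recognised by the TCF/LEF partners of beta-catenin. Rhbg, Tbx3 and Lgr5 were not searched. Slc1a2, Cyp2e1 and Cyp1a2 held a match, 3 of 6 genes, against 13.8% of 32851 promoters of the same length. The search for GCGTG, the core bound by the aryl hydrocarbon receptor, gave 0 of 6 genes, against 28.2% of promoters. The promoters of 3 genes are shown as examples. They include Slc1a2, which was called in DEHP against Control, and Cyp2e1, the most abundant of the 9 genes. Glul, the defining gene of the innermost layer, is shown too. Capitals mark TCAAAG or its reverse complement. The Slc1a2 window is chr2:102706188-102706437 on the plus strand, that of Cyp2e1 is chr7:140763569-140763818 on the plus strand, and that of Glul is chr1:153899679-153899928 on the plus strand.
Slc1a2: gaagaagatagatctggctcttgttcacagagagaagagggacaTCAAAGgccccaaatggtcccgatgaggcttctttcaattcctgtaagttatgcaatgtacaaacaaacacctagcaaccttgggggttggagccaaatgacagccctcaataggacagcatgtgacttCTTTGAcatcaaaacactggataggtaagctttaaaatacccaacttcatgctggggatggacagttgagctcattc
Cyp2e1: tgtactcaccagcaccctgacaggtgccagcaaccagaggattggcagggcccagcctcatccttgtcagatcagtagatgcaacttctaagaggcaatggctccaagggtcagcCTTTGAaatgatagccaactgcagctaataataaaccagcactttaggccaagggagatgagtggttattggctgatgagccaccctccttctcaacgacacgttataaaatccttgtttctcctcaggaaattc
Glul: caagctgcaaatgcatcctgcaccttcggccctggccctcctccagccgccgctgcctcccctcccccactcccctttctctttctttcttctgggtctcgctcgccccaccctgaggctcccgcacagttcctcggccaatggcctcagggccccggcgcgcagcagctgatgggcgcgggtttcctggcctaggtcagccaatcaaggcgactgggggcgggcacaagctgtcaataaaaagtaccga
The Slc1a2 window held 2 matches, 206 and 77 bases before the start, the Cyp2e1 window held 1 at 135 bases, and the Glul window held 0. A match is a description of these letters, and no match says only that the letters are not in this window. Enhancers further away were not searched.

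Among the genes of glutamine and ammonium handling, Slc1a2 separated DEHP from Control libraries and the others did not. Such a separation was common, as these 2 groups did not overlap in 41.4% of all genes tested. Slc1a2, the glutamate transporter that brings in substrate for glutamine synthesis, was at 36.06, 24.79 and 23.14 in Treatment libraries, at 17.28, 21.83 and 22.26 in DEHP libraries, and at 30.81, 33.17 and 29.62 in Control libraries. Every DEHP library lay below every Control and every Treatment library, and Treatment replicates 2 and 3 lay between the other groups. Glul, which encodes glutamine synthetase, was at 339.83, 334.23 and 315.76 in Treatment libraries, at 185.22, 300.99 and 353.29 in DEHP libraries, and at 328.25, 345.37 and 291.52 in Control libraries. DEHP replicate 1 was the lowest of all 9 and DEHP replicate 3 the highest, so the DEHP group spanned the others. Oat, the ornithine aminotransferase that turns ornithine into a precursor of glutamate, was at 604.73, 466.70 and 266.49 in Treatment libraries, at 275.63, 352.95 and 785.76 in DEHP libraries, and at 526.29, 461.94 and 463.80 in Control libraries. Its Control libraries were close together, with a coefficient of variation of 7.57%, against 38.1% in Treatment and 58.3% in DEHP libraries. Rhbg, an ammonium transporter, was at 5.91, 4.52 and 3.93 in Treatment libraries, at 2.26, 5.23 and 6.77 in DEHP libraries, and at 4.16, 4.27 and 2.54 in Control libraries, and its groups overlapped.

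The 3 genes listed here as Wnt targets, Tbx3, Axin2 and Lgr5, were all low. Tbx3, a transcription factor, was at 4.64, 4.38 and 3.39 in Treatment libraries, at 4.46, 2.51 and 3.20 in DEHP libraries, and at 4.29, 6.85 and 5.34 in Control libraries. DEHP replicates 2 and 3 were the lowest of all, and DEHP replicate 1 lay above Control replicate 1. Axin2, a negative feedback regulator of the Wnt pathway, was at 1.46, 1.33 and 1.19 in Treatment libraries, at 1.7, 0.93 and 1.05 in DEHP libraries, and at 1.51, 1.14 and 1.01 in Control libraries. Lgr5, a receptor for R-spondins, was at 1.01, 1.15 and 0.90 in Treatment libraries, at 1.43, 1.14 and 1.18 in DEHP libraries, and at 0.76, 1.32 and 0.66 in Control libraries. Lgr5 reached the filter value of 1 in 6 libraries, the 3 DEHP libraries among them.

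Both cytochrome P450 genes were abundant. Cyp2e1, which oxidises ethanol, acetone and many small solvents, was at 8370.87, 6372.67 and 6776.71 in Treatment libraries, at 5602.47, 5952.40 and 6055.31 in DEHP libraries, and at 6611.74, 7059.70 and 5473.33 in Control libraries. The 3 Treatment libraries all lay above the 3 DEHP libraries, while Control libraries spanned the DEHP range. Treatment and DEHP libraries did not overlap in 19.3% of all genes tested. Cyp2e1 alone made up 0.900% ± 0.131 of the summed values in Treatment, 0.696% ± 0.00982 in DEHP and 0.757% ± 0.112 in Control libraries (SD, n = 3). Cyp1a2, which oxidises caffeine and aromatic amines, was at 568.01, 443.34 and 396.49 in Treatment libraries, at 387.65, 460.82 and 563.87 in DEHP libraries, and at 573.68, 569.75 and 539.54 in Control libraries. Its Control libraries were tightly grouped near the top of the range, and 1 library of each other group reached them.

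**Figure D1:**
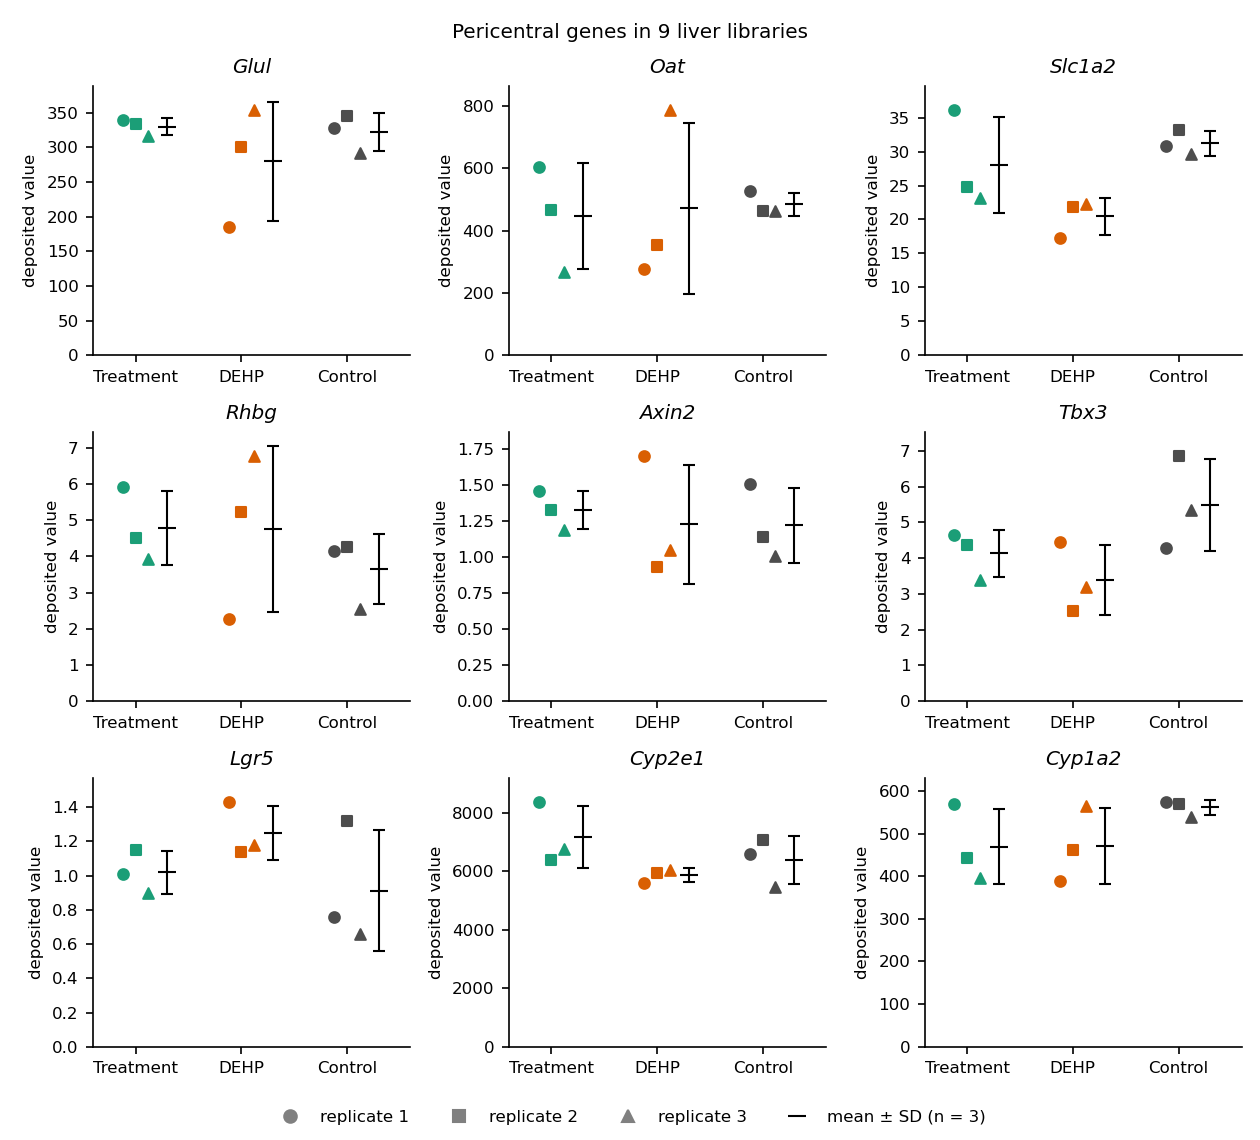
Deposited value (vertical axis, FPKM-like units, starting at 0) of each pericentral gene in the 3 libraries of the Treatment, DEHP and Control groups, with the mean and SD (n = 3) beside the points and marker shape giving the replicate number. Slc1a2 is the gene whose DEHP libraries, 17.28 to 22.26, all lie below the Control libraries, 29.62 to 33.17. These 2 groups did not overlap in 41.4% of all genes tested. Oat shows the widest spread within the DEHP group.

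On this scale per transcript length the order of the levels in Control libraries was Cyp2e1 at 6382 ± 818, Cyp1a2 at 561 ± 18.7, Oat at 484 ± 36.6, Glul at 322 ± 27.5, Slc1a2 at 31.2 ± 1.81, Tbx3 at 5.49 ± 1.29, Rhbg at 3.66 ± 0.969, Axin2 at 1.22 ± 0.259 and Lgr5 at 0.913 ± 0.356 (SD, n = 3). Among the 9 genes, Axin2 and Lgr5 were the only neighbours in this order whose Control libraries overlapped, while the lowest Tbx3 value, 4.29, lay just above the highest Rhbg value, 4.27. In DEHP libraries Oat averaged 471 ± 275 and Cyp1a2 averaged 471 ± 88.5, and Rhbg at 4.75 ± 2.29 stood above Tbx3 at 3.39 ± 0.989, neither pair differing beyond its spread.

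DEHP against Control addresses the effect of the phthalate, with its oil, on the pericentral zone. Slc1a2 fell by 0.59 on the log2 scale (SE 0.16, 95% interval -0.94 to -0.24, adjusted p = 0.0212), to 20.5 ± 2.76 in DEHP libraries, against 31.2 ± 1.81 in Control libraries (SD, n = 3). Tbx3 fell by 0.57 (SE 0.19, interval -0.99 to -0.15, adjusted p = 0.0496), to 3.39 ± 0.989 in DEHP libraries, against 5.49 ± 1.29 in Control libraries, a value at the threshold. Thus 2 of 9 genes were called, both lower, where 25.5% of the 10388 genes tested were called in either direction, 21.6% higher and 3.91% lower. That balance depended on the scaling: the deposited values gave 2248 higher and 406 lower calls, median centring gave 1271 higher and 736 lower, quantile normalization gave 922 higher and 833 lower, and totals that exclude the major urinary protein (Mup) genes gave 804 higher and 996 lower. Only Slc1a2 had groups without overlap, 1 of 9 genes, against 41.4% of all genes tested. Calls required an adjusted p below 0.05 from limma over all genes tested, and all 9 genes passed the filter on low values.

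The call of Slc1a2 was lost without Control replicate 1 (-0.60, adjusted p = 0.0599), without Control replicate 2 (-0.55, adjusted p = 0.0651), without DEHP replicate 1 (-0.48, adjusted p = 0.0671) and when Control replicate 3 stood alone against the DEHP libraries (-0.52, adjusted p = 0.218), and was kept in 15 of 19 settings. The call of Tbx3 was lost in 13 of 19 settings, among them leaving out Control replicate 2, which has the highest Tbx3 and Adipoq values, and leaving out DEHP replicate 2 (-0.42 in both, adjusted p = 0.144 and 0.138).

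The other 7 genes did not pass. Their intervals hold for the deposited scaling and for log2(value + 1), on which low genes show too small a change. For Cyp2e1 the log2 fold change was -0.11 (interval -0.39 to 0.16, adjusted p = 0.548), which is 0.763 to 1.12 times the Control level. For Axin2 it was -0.01 (interval -0.32 to 0.31, adjusted p = 0.985). Cyp1a2 was at -0.27 (interval -0.61 to 0.07, adjusted p = 0.228) and Glul at -0.25 (interval -0.70 to 0.20, adjusted p = 0.404). Lgr5 was at 0.25 (interval -0.06 to 0.55, adjusted p = 0.216), and it was called higher without Control replicate 2 (0.39, adjusted p = 0.0411). The intervals of Oat, -1.18 to 0.81, and Rhbg, -0.48 to 0.96, were the widest of the 9. That of Oat corresponded to 0.440 to 1.75 times the Control level. For Rhbg, a low gene, the interval corresponded to a ratio of value + 1 of 0.717 to 1.94, which is not the ratio of the levels. The median over the 9 genes was -0.19, against 0.12 over all genes tested, and 7 of the 9 lay below that median.

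**Figure D2:**
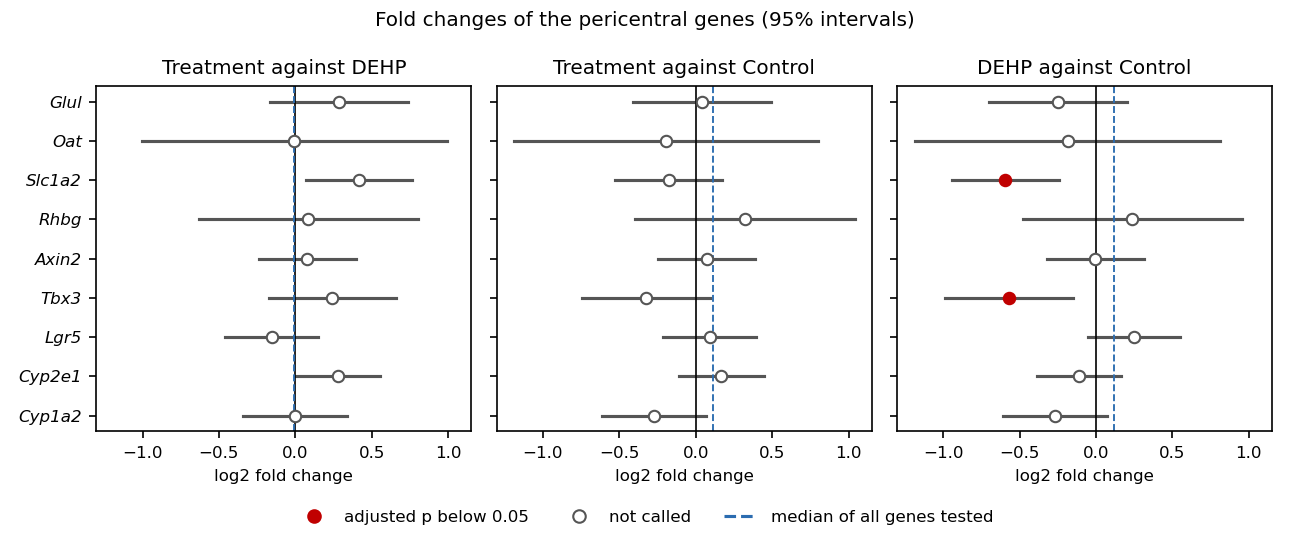
Log2 fold change (horizontal axis) of each pericentral gene with its 95% interval in the 3 comparisons. Filled points mark an adjusted p below 0.05, and the dashed line marks the median of all 10388 genes tested, at 0.12 in DEHP against Control. The filled points are Slc1a2 and Tbx3 in DEHP against Control, and the bars of Oat and Rhbg are the longest.

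Fold changes shifted with the scaling. The Mup genes, which are abundant liver transcripts, held 8.42% ± 2.79 of the summed values in Treatment, 5.49% ± 3.06 in DEHP and 18.8% ± 2.36 in Control libraries (SD, n = 3). Relative to the median gene, Slc1a2 was at -0.71, Tbx3 at -0.68, Cyp1a2 at -0.38, Glul at -0.36, Oat at -0.30, Cyp2e1 at -0.23, Axin2 at -0.12, Rhbg at 0.12 and Lgr5 at 0.13 in DEHP against Control. The sign of Cyp2e1 depended on the scaling: it was at -0.33 after rescaling without the Mup genes and at 0.66, called higher, after quantile normalization. Cyp2e1 ranked 12 to 14 among all genes in Treatment libraries, 13 to 16 in DEHP libraries and 21 to 28 in Control libraries, and the Mup genes above it numbered 3 or 4 in Treatment, 1 to 4 in DEHP and 8 to 10 in Control libraries. Quantile normalization replaces each value by that of its rank, which sets Cyp2e1 higher in DEHP libraries. Cyp1a2 was called lower after quantile normalization (-0.52, adjusted p = 0.0442) and in no other setting.

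**Figure D3:**
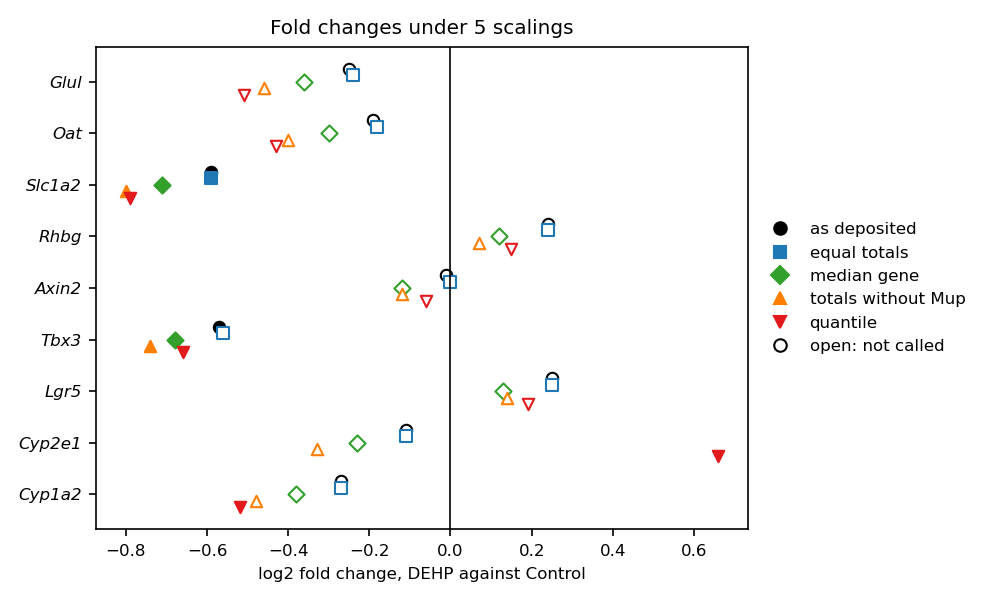
Log2 fold change in DEHP against Control (horizontal axis) of each pericentral gene under 5 scalings of the libraries, with filled symbols where the adjusted p was below 0.05. Slc1a2 is filled under all 5, from -0.80 to -0.59, and Cyp2e1 is the gene whose sign turns, to 0.66 after quantile normalization.

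Wnt pathway components and targets were followed as lists of RNA levels, and signalling itself was not measured. These and the lists further below were chosen with earlier results of these data known, so their counts of calls are descriptive. Of the ligands made around the central vein, Wnt2 was at 1.23, 0.78 and 0.59 in Treatment libraries, at 0.85, 1.23 and 2.04 in DEHP libraries and at 1.24, 1.03 and 0.79 in Control libraries, and it was not called in DEHP against Control (0.21, SE 0.19, adjusted p = 0.462). Rspo3, an R-spondin, was at 1.84, 1.52 and 1.48 in Treatment libraries, at 1.78, 1.62 and 2.17 in DEHP libraries and at 1.55, 2.89 and 1.49 in Control libraries (-0.03, SE 0.17, adjusted p = 0.915). Wnt9b stayed below 1 in all 9 libraries, at 0.12 to 0.83, and was not tested. The ligands therefore showed no group that stood apart from the others.

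Of 26 tested Wnt pathway components, 3 fell in DEHP against Control and 0 rose, where 3.91% of all genes tested were called lower and 21.6% higher. Those that fell were the receptors Fzd4 and Fzd8 and the coactivator Bcl9l. The median of the list was -0.01, against 0.12 over all genes tested. The other receptors and coreceptors of the list did not pass. Fzd1 was at -0.02, Fzd5 at 0.00, Fzd7 at 0.02, Lrp6 at -0.03, Lgr4 at 0.05 and Lrp5 at 0.36 (adjusted p = 0.0778). Fzd4, a Frizzled receptor also made by endothelial cells, was at 4.37, 3.76 and 3.35 in Treatment libraries, at 2.33, 2.47 and 2.30 in DEHP libraries and at 4.07, 4.65 and 4.08 in Control libraries. It fell by 0.64 (SE 0.10, adjusted p = 0.00154), a call kept in 19 of 19 settings. Fzd8, another Frizzled receptor, was at 4.79, 2.98 and 2.81 in Treatment libraries, at 1.74, 1.93 and 1.56 in DEHP libraries and at 3.20, 4.18 and 3.26 in Control libraries. It fell by 0.72 (SE 0.16, adjusted p = 0.00839), a call kept in 18 of 19 settings and lost with a lone control. For both receptors all DEHP libraries lay below all other libraries. Over all genes tested, DEHP libraries did not overlap Control libraries in 41.4% and Treatment libraries in 19.3%. Bcl9l, a coactivator of beta-catenin, fell by 0.38 (SE 0.13, adjusted p = 0.0472), a call kept in 5 of 19 settings. Endothelial markers are given above: 0 of 11 tested passed in DEHP against Control, where 25.5% of all genes tested were called. Whether endothelial content played a part in the Fzd4 values was not tested.

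**Figure D4:**
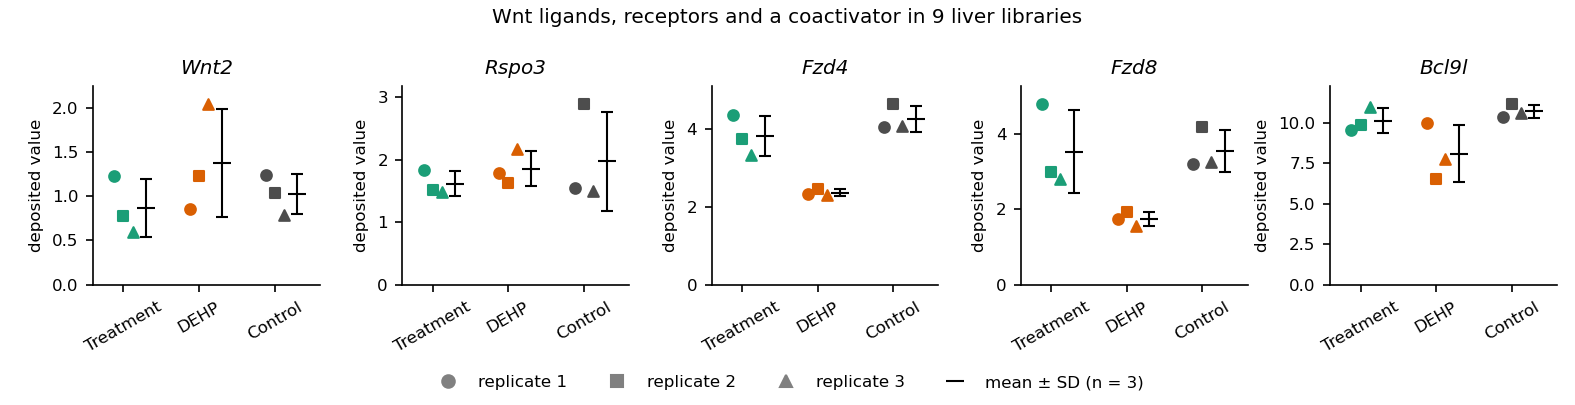
Deposited value (vertical axis, FPKM-like units, starting at 0) of the ligands Wnt2 and Rspo3, the receptors Fzd4 and Fzd8 and the coactivator Bcl9l in the Treatment, DEHP and Control libraries, with mean and SD (n = 3). The DEHP libraries of Fzd4, 2.30 to 2.47, and Fzd8, 1.56 to 1.93, lie below all others, and the groups of the ligands overlap. Of all genes tested, 41.4% had no overlap between DEHP and Control libraries and 19.3% none between DEHP and Treatment libraries.

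Of 11 further beta-catenin target genes, 9 were tested and 0 passed in DEHP against Control by limma, where 25.5% of all genes tested were called. Their median was -0.25, against 0.12 over all genes tested. Lef1 and Apcdd1 were too low to test. At an unadjusted p below 0.05 stood 3 of the 9, named after their values were seen, as did 3948 of all 10388 genes. They were Myc (-0.73, adjusted p = 0.093) and Ccnd1 (-0.55, adjusted p = 0.0964), which drive cell growth and division, and Rnf43 (-0.26, adjusted p = 0.121), a ubiquitin ligase that removes Frizzled receptors.

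Genes linked to Cyp1a2 and to glutamine handling gave calls in both directions. Ahr, the aryl hydrocarbon receptor through which Cyp1a2 is induced, rose by 0.54 (SE 0.12, adjusted p = 0.00833), to 10.3 ± 0.442 in DEHP libraries, against 6.78 ± 0.758 in Control libraries (SD, n = 3). Of 9 genes in its list 5 were tested, and 2 rose and 0 fell. Of all genes tested, 21.6% were called higher and 3.91% lower. The genes that rose were Ahr and Nqo1, a quinone reductase that the oxidant sensor NRF2 also induces (1.11, SE 0.23, adjusted p = 0.00895). Cyp1a1, another target, was at 0.41 to 0.68 in Treatment libraries, 0.71 to 0.83 in DEHP libraries and 0.54 to 1.27 in Control libraries and was not tested. Of 17 tested genes of glutamine, glutamate and proline metabolism, 5 rose and 2 fell in DEHP against Control, where 21.6% of all genes tested were called higher and 3.91% lower. Glud1, glutamate dehydrogenase, rose by 0.34 (SE 0.08, adjusted p = 0.0119), and Slc25a15, the mitochondrial ornithine carrier, rose by 0.52 (SE 0.12, adjusted p = 0.0124). Both calls were lost after quantile normalization, rescaling without the Mup genes and centring on the median gene. Slc38a3, a glutamine transporter, fell by 0.48 (SE 0.15, adjusted p = 0.039), to 589 ± 120 in DEHP libraries, against 810 ± 42.5 in Control libraries, a call kept in 12 of 19 settings. Aldh4a1, a proline degradation enzyme, rose by 0.26 (SE 0.08, adjusted p = 0.0418), a call kept in 5 of 19 settings, and was at -0.03 after quantile normalization. The calls of Got2 and Prodh2 were each kept in 3 of 19 settings, with values of -0.01 and -0.04 after quantile normalization, and that of Prodh, which was lower, in 8.

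Other genes with a pericentral pattern did not move as one group. Of 20 tested, 5 rose and 1 fell in DEHP against Control, the higher calls being near the 21.6% of all genes tested, with a median of 0.04 against 0.12 over all genes tested. Aldh3a2, a fatty aldehyde dehydrogenase that PPARA agonists induce in mice, rose by 1.26 (SE 0.14, adjusted p = 0.000391). Gstm1, a glutathione transferase, rose by 1.01 (SE 0.14, adjusted p = 0.000946), and Cyp3a11, a target of the xenobiotic receptor PXR, rose by 0.74 (SE 0.13, adjusted p = 0.00281). Ahr belongs to this list too. The gene that fell was Gulo, which makes vitamin C and is named outside the naming rule, by 0.79 (SE 0.17, adjusted p = 0.00943). Gstm and Cyp3a genes have near-identical copies, so their values are uncertain. Of 18 periportal genes, which mark the opposite end of the lobule, 4 rose and 3 fell, against 21.6% higher and 3.91% lower over all genes tested, with a median of 0.00. Igfals, a carrier of insulin-like growth factors, fell by 0.80 (SE 0.13, adjusted p = 0.00229), Pigr, the receptor for polymeric immunoglobulin, fell by 0.37 (SE 0.10, adjusted p = 0.0217), and Ctsc, a lysosomal protease, rose by 0.67 (SE 0.15, adjusted p = 0.0112). Aldh1b1, a mitochondrial aldehyde dehydrogenase, rose by 0.54 (SE 0.13, adjusted p = 0.0135), a call kept in 15 of 19 settings. The calls of Hsd17b13 and Hal, both higher, and Asl, lower, were kept in 9, 8 and 9 of 19 settings.

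Among transcription factors of hepatocytes, Nr1h4, the bile acid receptor FXR, fell by 0.47 (SE 0.10, adjusted p = 0.00769) in DEHP against Control, and Cebpa fell by 0.48 (SE 0.12, adjusted p = 0.0162). The call of Nr1h4 was kept in 19 of 19 settings and that of Cebpa in 14. Hnf4a, the main hepatocyte regulator, was at -0.06 (adjusted p = 0.601).

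Treatment against DEHP asks how phthalate-dosed mice differed when polyphenols were added. None of the 9 genes passed, and limma called 0% of all genes tested; 1524 genes had an unadjusted p below 0.05, and a limma fit with neither trend nor robust estimates called 0 too. For Slc1a2 and Cyp2e1 the Treatment libraries all lay above the DEHP libraries. Groups did not overlap in 2 of 9 genes, against 19.3% of all genes tested. Slc1a2 averaged 28.0 ± 7.03 in Treatment libraries and 20.5 ± 2.76 in DEHP libraries (SD, n = 3), a log2 fold change of 0.42 (SE 0.16, interval 0.07 to 0.77, unadjusted p = 0.0243 and adjusted p = 0.263 by limma). Cyp2e1 averaged 7173 ± 1057 in Treatment libraries and 5870 ± 237 in DEHP libraries, a log2 fold change of 0.28 (SE 0.12, interval 0.00 to 0.56, adjusted p = 0.335). Treatment replicate 1 had the highest value of all libraries for both genes, and without it they were at 0.23 and 0.16.

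The remaining genes were at 0.29 for Glul (interval -0.17 to 0.74), 0.24 for Tbx3 (interval -0.18 to 0.66), 0.08 for Rhbg (interval -0.63 to 0.80), 0.08 for Axin2 (interval -0.24 to 0.39), 0.00 for Cyp1a2 (interval -0.34 to 0.33), -0.01 for Oat (interval -1.005 to 0.989) and -0.16 for Lgr5 (interval -0.46 to 0.15). Fzd4 was at 0.51 (SE 0.10, adjusted p = 0.0924) and Fzd8 at 0.70 (SE 0.16, adjusted p = 0.127), neither of which passed. Myc, named after its values were seen, was at 8.25, 6.41 and 3.29 in Treatment libraries, 1.47, 1.18 and 1.96 in DEHP libraries and 3.35, 4.22 and 2.23 in Control libraries. Its Treatment libraries all lay above its DEHP libraries, and the log2 fold change of 1.40 (SE 0.28) did not pass (adjusted p = 0.122). The comparisons of Treatment with DEHP and of DEHP with Control share the DEHP libraries, so values of opposite sign in them are not independent.

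Treatment against Control asks what differed from water-dosed mice with both agents given. Again 0 of the 9 genes passed, where 10.4% of all genes tested were called, 9.68% higher and 0.76% lower, and 2977 had an unadjusted p below 0.05. Here the deposited values gave 1006 higher and 79 lower calls, totals that exclude the Mup genes gave 298 higher and 65 lower, median centring gave 180 higher and 96 lower, and quantile normalization gave 172 higher and 110 lower. A limma fit with neither trend nor robust estimates called 0 of the 9 genes as well. Groups did not overlap in 0 of 9 genes, against 36.1% of all genes tested. Slc1a2 was at -0.18 (SE 0.16, interval -0.53 to 0.17) and Tbx3 at -0.33 (SE 0.19, interval -0.75 to 0.09). Glul was at 0.04 (interval -0.41 to 0.49), Cyp2e1 at 0.17 (interval -0.11 to 0.44), Cyp1a2 at -0.27 (interval -0.61 to 0.07), Rhbg at 0.32 (interval -0.40 to 1.04), Lgr5 at 0.09 (interval -0.21 to 0.40), Axin2 at 0.07 (interval -0.24 to 0.39) and Oat at -0.19 (interval -1.19 to 0.80). After quantile normalization Cyp2e1 was called higher, at 0.76. Fzd4 was at -0.13 and Fzd8 at -0.03, and 0 of 26 Wnt pathway components and 0 of 9 further beta-catenin targets passed. Of the other pericentral genes 2 of 20 rose, Aldh3a2 by 0.80 (SE 0.14, adjusted p = 0.0101) and Cyp3a11 by 0.57 (SE 0.13, adjusted p = 0.0251), a call kept in 11 of 19 settings, and of 18 periportal genes 3 rose, Ctsc, Aldh1b1 and Hal, and 0 fell. The call of Ctsc was kept in 15 of 19 settings, and those of Aldh1b1 and Hal in 9 each.

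Libraries of a group differed among themselves, and the genes did not all vary together. DEHP replicate 1 had the lowest of all 9 values for Glul, Slc1a2, Rhbg and Cyp1a2 and the highest for Axin2 and Lgr5. DEHP replicate 3 had the highest for Glul, Oat and Rhbg. In the Treatment group, replicate 1 was the highest of the 3 for 8 of 9 genes and replicate 3 the lowest for 8 of 9. In the Control group, replicate 3 was the lowest for 7 of 9 genes. DEHP replicate 1 was also the lowest of the DEHP group for 11 of 18 periportal genes, so low values in that library were not limited to the pericentral list. In the other groups the lists differed. Treatment replicate 1 was the lowest of its group for 12 of 18 periportal genes and Treatment replicate 3 for 1. Control replicate 2 was the highest of its group for 6 of 9 pericentral genes and the lowest for 11 of 18 periportal genes. Control replicate 3 was the lowest for 1 of 18 periportal genes. Standing within a group was not counted over all genes, and the cause was not tested. DEHP replicate 1 also had the smallest Mup share, 2.37% of its total.

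**Figure D5:**
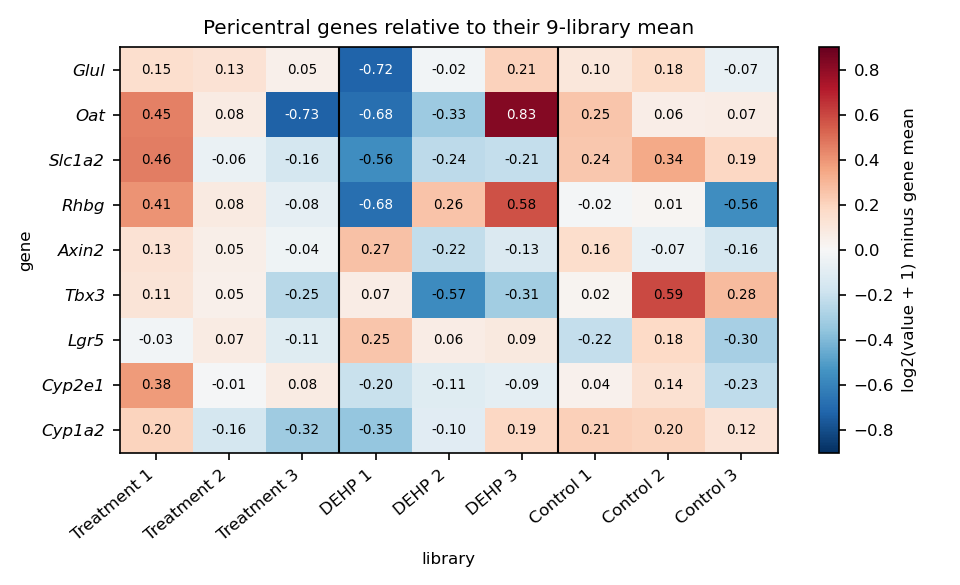
Each pericentral gene (rows) in each library (columns, grouped as Treatment, DEHP and Control) as log2(value + 1) minus the mean of that gene over the 9 libraries, with red above and blue below the mean. DEHP replicate 1 is blue for Glul, Oat, Slc1a2, Rhbg, Cyp2e1 and Cyp1a2 and red for Axin2, Tbx3 and Lgr5.

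Ratios within a library are not changed by a scaling that multiplies a whole library by 1 factor, but quantile normalization changes them. Cyp2e1 over Cyp2f2, a pericentral over a periportal P450, was 9.40, 6.51 and 7.17 in Treatment libraries, 6.845, 5.57 and 7.38 in DEHP libraries, and 7.42, 8.72 and 5.625 in Control libraries. Glul over Gls2, glutamine synthesis over the periportal glutaminase, was 2.15, 1.74 and 1.65 in Treatment libraries, 1.48, 1.78 and 2.03 in DEHP libraries, and 2.03, 2.21 and 1.435 in Control libraries. Both ratios overlapped between all groups, and these pairs were chosen after the values were seen.

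The genes whose profiles over the 9 libraries lay closest to each of the 9 were found by the mean absolute difference between centred log2 values. The closest to Oat were Lect2, a secreted protein with a pericentral pattern, at a mean difference of 0.230 and Ly6a at 0.257. For none of the 9 genes did the closest profile lie further off than for Oat. Lect2 was at 148.61, 141.74 and 106.81 in Treatment libraries, 128.48, 125.15 and 184.91 in DEHP libraries and 155.70, 151.80 and 149.01 in Control libraries, so it shared with Oat the high DEHP replicate 3 and the low Treatment replicate 3. The closest to Slc1a2 were Pla1a, a phospholipase, at 0.053 and F7, coagulation factor VII, at 0.092. The closest to Glul were Slc46a3 at 0.082 and Etnk2, an ethanolamine kinase, at 0.093, both of which, like Glul, were lowest in DEHP replicate 1. For Axin2, Lgr5 and Cyp2e1, whose own profiles spanned 0.48, 0.55 and 0.61 on the log2 scale, the closest genes lay within 0.062.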

How the data were processed

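Per the labels' protocols, poly(A) RNA was selected with oligo(dT) beads, fragmented and copied with random hexamers. The submitters' processing notes name mm9, CASAVA 1.7 and limma with no role; aligner, counter and annotation were not given in the sources used here. What the authors deposited was 1 non-negative signal value per gene symbol and library, of the FPKM or TPM kind from the values, so no read counts or count intervals could be given.

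Tests used log2(value + 1), on which low genes show too small a change. The 10388 genes reaching 1 in 3 or more libraries entered the tests. One limma model (3.58.1, R 4.3.3, trend and robust estimates) covered all 9 libraries, with Benjamini-Hochberg adjustment over all genes tested and calls at an adjusted p below 0.05; 95% intervals are unadjusted. The code was tested on simulated data. All 9 genes were named, each list could contribute the 4 calls of lowest adjusted p, and the 2 closest profiles were taken among genes with a mean of at least 5. One listed gene is not reported here. Genes and lists were chosen with earlier results of these data known. Alternatives covered scaling, filter, pseudocount 0.1, variance model, the libraries fitted, a replicate block, leaving out each library, and Control replicate 3 as the lone control, the Control library with Adipoq at 0. Promoters came from RefSeq (GRCm38.p6); since the build differs from mm9, no coordinates were joined to the values.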

Additional observations from a re-analysis of the deposited data

How the results depend on the processing

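The count of genes called in DEHP against Control was 2 as reported. It was 4 after quantile normalization. It was 1 after rescaling to equal totals, with no filter on low values and without trend and robust estimates. With only the 6 libraries compared and with the replicate block it was 1 too. With Control replicate 3 as the lone control Slc1a2 was at -0.52 and Tbx3 at -0.55. Each fit that left out a library gave 1 call, but not always of the same gene. That call was Tbx3 without Control replicate 1 and without DEHP replicate 1. Without Control replicate 2 it was Lgr5, called higher, and in the other such fits Slc1a2. In Treatment against Control the count of genes called was 1 after quantile normalization in place of 0. The replicate block removed the call of Tbx3 and no other call among the 9 genes; same-numbered libraries shared deviations with correlations of -0.263 to 0.17, 1 of 9 pairs was above 0.1, and in 3 of 18 cases a library correlated best with its own number in another group, so the numbers were not taken as pairs. The share of all genes called ran from 7.29% to 26.3% in DEHP against Control, 0% to 0.828% in Treatment against DEHP and 0.0963% to 19.4% in Treatment against Control.

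Signs turned in genes that were not called in the reported fit. In DEHP against Control, Cyp2e1 was at 0.66 after quantile normalization and 0.10 with the lone control, and Axin2 at 0.13 with the lone control. In Treatment against DEHP, Oat was at 0.05, 0.07 and 0.12 and Cyp1a2 at 0.08, 0.08 and 0.12 after quantile normalization, rescaling to equal totals and rescaling without the Mup genes. In Treatment against Control, Glul was at -0.13, -0.05 and -0.08 after quantile normalization, rescaling without the Mup genes and centring on the median gene, and centring also put Axin2 at -0.04 and Lgr5 at -0.02. When single libraries were left out, values in DEHP against Control ran from -0.44 to 0.02 for Glul, -0.63 to 0.12 for Oat, -0.02 to 0.60 for Rhbg and -0.15 to 0.09 for Axin2. In Treatment against DEHP they ran from -0.32 to 0.44 for Oat, -0.28 to 0.35 for Rhbg, -0.02 to 0.22 for Axin2 and -0.15 to 0.13 for Cyp1a2. In Treatment against Control they ran from -0.03 to 0.09 for Glul, -0.45 to 0.14 for Oat and 0.00 to 0.24 for Lgr5. The causes of these changes were not tested. Of 504 combinations of gene, comparison and setting, 453 kept direction and side of the threshold.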
